A study of Mus musculus with 18 samples.

Results

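The naive pluripotency factors are 10 transcriptional regulators of mouse embryonic stem cells, namely Nanog, Esrrb, Klf2, Klf4, Klf5, Tfcp2l1, Tbx3, Nr0b1, Prdm14 and Zfp42. They were picked by name, and all 10 were found among the 55401 gene IDs of every library and passed the filter on low counts. RNA with poly(A) tails was measured in 18 libraries that form 6 groups of 3. The groups were Dox and control at day 0 (0 h), Dox and control at day 3 (72 h), and Dox and control at day 5 (120 h) of differentiation into gastruloids, which are aggregates of stem cells that model the early embryo. Every group, controls included, consisted of RHKI cells, a line made from E14Tg2a embryonic stem cells with the genotype HA-Rnaseh1 knock-in. Rnaseh1 encodes RNase H1, which cuts RNA that is paired with DNA. Dox cells received doxycycline at 500 ng/ml over 48 h ahead of differentiation. Whether it was continued afterwards, how many clones the line stands for and which promoter responds to Dox are not given in the sources used here. Before differentiation all cells grew in medium with LIF, CHIR-99021, PD0325901 and 2% FBS. The comparisons asked how far and in which order the 10 factors were lost by day 3 and day 5, and whether Dox changed their levels at each day.

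Naive pluripotency is the state of the epiblast before implantation, and embryonic stem cells hold it in culture under LIF and inhibitors of GSK3 and MEK. The factors form a network in which members bind near each other's genes: LIF acts through STAT3 on Klf4 and Tfcp2l1, and GSK3 inhibition relieves repression of Esrrb by Tcf7l1. When these inputs are withdrawn the network is shut down and cells pass through a formative epiblast state before they take up lineage programmes.

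Total counts per library ranged from 25748897 to 38128366. Rnaseh1 averaged 153 ± 17.6 normalised CPM (read counts scaled to library size) in Dox and 28.3 ± 2.28 in control libraries at day 0, 68.1 ± 2.05 and 23.5 ± 1.06 at day 3, and 57.1 ± 3.35 and 19.7 ± 0.372 at day 5 (SD, n = 3 each). It was higher in all 9 pairs of Dox and control libraries of the same replicate number and day, with edgeR adjusted p = 4.1e-13, 9.9e-10 and 1.3e-09 at the successive days. Pou5f1 (Oct4), which marks pluripotent cells of either state, had 1176, 1151 and 1248 CPM in Dox and 1197, 1287 and 1150 CPM in control libraries at day 0. One rRNA gene held 4.76% of the counts of Dox replicate 2 at day 0 and 0.144 to 0.483% in the other 17 libraries. The labels do not say whether replicates came from separate cultures, and p-values then measure only a spread among libraries that may be technical. In bulk RNA, fewer cells that express a gene and less RNA per cell cannot be told apart.

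All 10 factors fell between day 0 and day 3 in control cells, where 36.3% of all 17795 genes tested fell (edgeR, adjusted p under 0.05 over all genes). The median log2 fold change of the 10 was -6.23, against 0.02 over all genes tested. In Dox cells all 10 fell as well, where 35.9% of all genes fell, with a median of -5.97 against 0.01. The summed CPM of the 10 was 4353 to 4633 in the Dox libraries and 4509 to 4590 in the control libraries of day 0. At day 3 it was 337 to 342 with Dox and 323 to 339 without, and at day 5 it was 12.1 to 17.9 with Dox and 12.5 to 16.3 without. Nanog made up most of what was left at day 3. Of the 10 factors, 8 fell further between day 3 and day 5 in control cells, where 33.1% of all genes fell, and 9 in Dox cells, where 32.9% did. The factors that did not pass were Tbx3 and Prdm14 in control cells and Prdm14 in Dox cells. Relative to day 0, all 10 were lower in control cells at day 5 (40.3% of all genes).

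**Figure D1:**
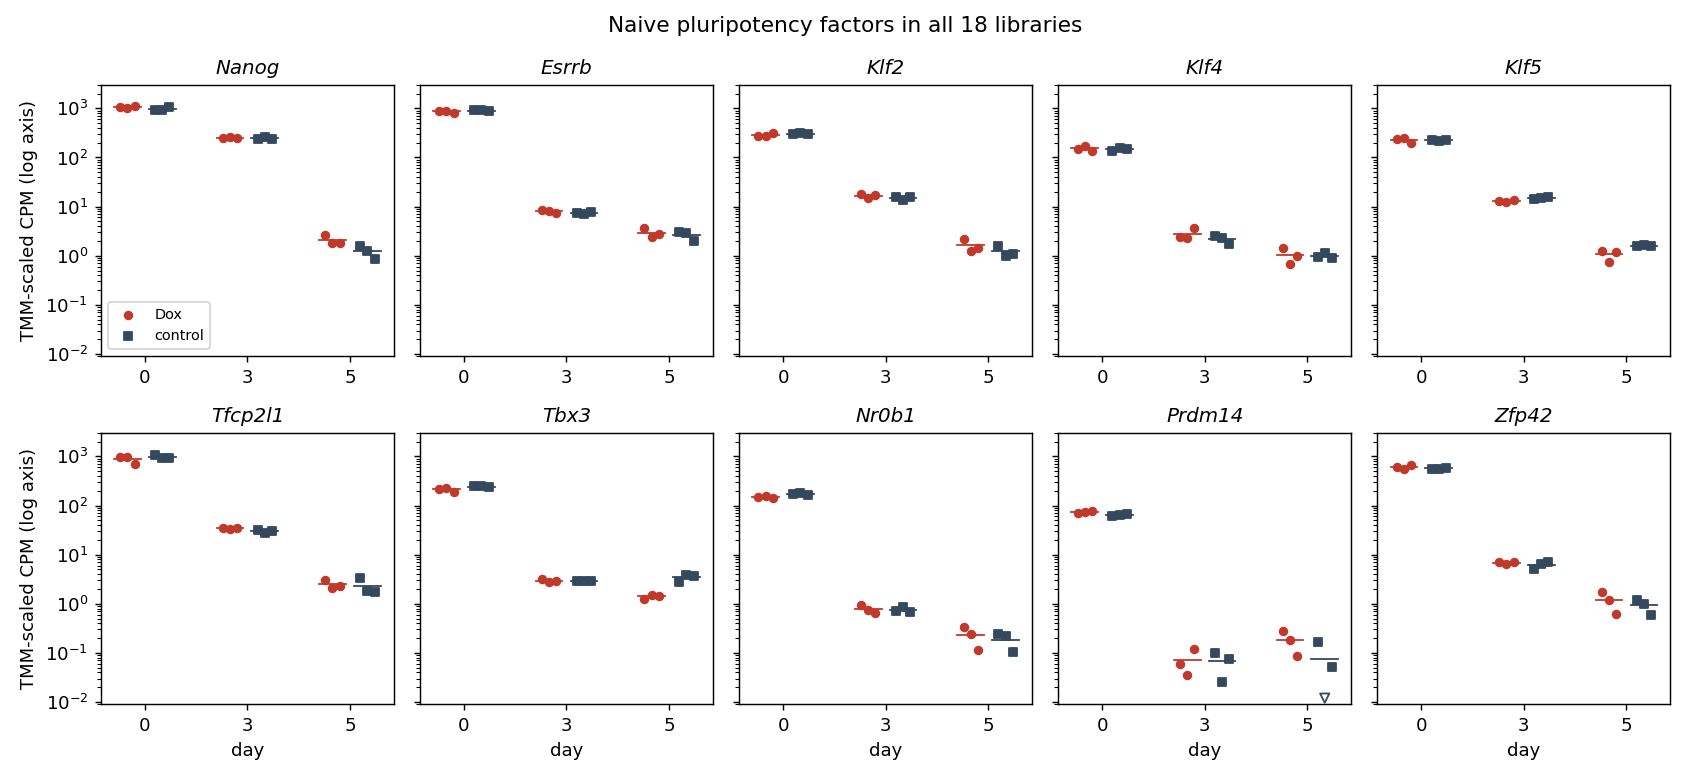
Normalised CPM (log axis) of each factor in all 18 libraries by day, Dox (red circles) left of control (dark squares), with a bar at each group mean. The open triangle marks the control library of day 5 without a Prdm14 count. Nanog keeps 241 to 263 CPM at day 3, where none of the other 9 factors exceeds 34.4.

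Levels between genes were compared per transcript length, in the deposited TPM. In day 0 control cells Nanog had the highest mean level, 597 ± 60.2 TPM, followed by Zfp42 at 446 ± 30.9, Esrrb at 294 ± 15.4 and Klf2 at 229 ± 3.84 (SD, n = 3). The libraries of these neighbours did not overlap. Tfcp2l1 at 134 ± 12.8 TPM and Nr0b1 at 130 ± 1.95 overlapped, as did Klf5 at 87.5, Tbx3 at 77.7 and Klf4 at 74.1. Prdm14 was lowest at 33.8 ± 2.9 TPM. With Dox the mean levels ran in the same order except that Klf4 (72.8 TPM) stood above Tbx3 (65.6 TPM), and libraries of this pair overlapped. At day 3 Nanog stood at 173 ± 3.2 TPM in Dox and 171 ± 7.86 in control cells, and the next factor, Klf2, at 13.7 ± 1.33 and 12.4 ± 0.84. By day 5 no factor exceeded a mean of 1.61 TPM with Dox (Nanog) or 1.31 TPM without (Tbx3).

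Nanog, a homeodomain protein that sustains self-renewal without LIF when overexpressed, lies on chromosome 6 (GRCm38, 122707489 to 122714633, plus strand). It was the last of the 10 to be lost. At day 0 it had 1072, 1007 and 1126 CPM in Dox libraries and 919, 926 and 1046 CPM in control libraries. At day 3 it had 253, 260 and 250 CPM with Dox and 242, 263 and 241 CPM without. The treatments overlapped at both days. At day 5 the values were 2.65, 1.8 and 1.79 CPM with Dox and 1.56, 1.24 and 0.875 CPM without, so that each Dox library stood above each control library. In control cells Nanog fell 3.87-fold by day 3 (log2 -1.95 ± 0.0852 SE, edgeR adjusted p = 1.9e-13) and a further 207-fold by day 5 (log2 -7.70 ± 0.131 SE, edgeR adjusted p = 9.3e-19). Only 20.3% of its log2 decline over the 5 days was complete at day 3 in control cells and 23% in Dox cells. A Nanog pseudogene, Nanog-ps1, had at most 16.7 counts in a library.

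The Nanog promoter is shown because it holds the composite site through which Oct4 and Sox2 are known to act on the gene, and because Pou5f1 and Sox2 took different courses here. The window runs from 250 bases before the annotated start to 50 after it (RefSeq, GRCm38.p6, chr6:122707239-122707538, plus strand), and capitals mark the match to the letters TTTGCAT followed, after 1 base of any kind, by ACAATG, whose first base lies 75 bases before the start.
Nanog promoter: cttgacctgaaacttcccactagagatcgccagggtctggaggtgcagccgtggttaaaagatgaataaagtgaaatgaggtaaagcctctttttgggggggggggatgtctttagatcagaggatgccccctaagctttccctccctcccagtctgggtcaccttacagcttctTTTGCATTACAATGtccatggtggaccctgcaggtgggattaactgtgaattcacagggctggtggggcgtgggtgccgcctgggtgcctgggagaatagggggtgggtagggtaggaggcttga
Searched on both strands, the composite was found in 2 of 32851 promoter windows of this length (0.00609%), both of them overlapping windows of Nanog itself. The window not shown belongs to another annotated start of Nanog, and the site begins 151 bases before that start. The motif was spelled with the Nanog window in view, so its share describes how rare these letters are and nothing more. Pou5f1 averaged 1076 ± 45 CPM in Dox and 1135 ± 65.9 in control libraries at day 3, when its change from day 0 was not called in control cells (log2 -0.09, edgeR adjusted p = 0.49), and 4.58 ± 0.915 and 3.19 ± 1.24 at day 5 (SD, n = 3). Sox2 averaged 458 and 456 CPM at day 0 (Dox, then control), 29.4 and 30 at day 3, and 256 and 267 at day 5. Most of the log2 decline of Nanog fell in the interval in which Pou5f1 declined. Sox2 fell by day 3 and rose again by day 5 (log2 3.15 in control cells, edgeR adjusted p = 7.6e-18). Whether the course of either gene bears on that of Nanog was not tested.

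Esrrb and Tfcp2l1 are transcription factors at the ends of the GSK3 and LIF inputs. Both fell in each interval, Esrrb mostly before day 3 and Tfcp2l1 over both. Esrrb, an orphan nuclear receptor (chromosome 12, 86361117 to 86521628, plus strand), had 885, 902 and 809 CPM in Dox and 923, 919 and 868 CPM in control libraries at day 0. By day 3 it stood at 8.66, 8.2 and 7.52 CPM with Dox and 7.3, 7.19 and 7.81 CPM without. At day 5 the values were 3.74, 2.38 and 2.71 CPM with Dox and 2.98, 2.91 and 1.95 CPM without. Treatments overlapped at every day, and the groups of successive days did not. The decline in control cells was 121-fold by day 3 (log2 -6.92, edgeR adjusted p = 5.1e-19) and 2.88-fold from day 3 to day 5 (log2 -1.53, edgeR adjusted p = 1.3e-08), so that 82.1% of the log2 decline was complete at day 3 in either treatment.

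Tfcp2l1, a grainyhead-family factor downstream of LIF and STAT3 (chromosome 1, 118627945 to 118685168, plus strand), had 964, 972 and 709 CPM in Dox and 1045, 927 and 940 CPM in control libraries at day 0. Its day 3 values were 34.4, 33.6 and 34.4 CPM with Dox and 32.4, 28 and 30.3 CPM without. Each Dox library stood above each control library at day 3, by a narrow margin, and the change was not called (log2 0.18, edgeR adjusted p = 1). At day 5 it had 3.07, 2.1 and 2.25 CPM with Dox and 3.29, 1.84 and 1.75 CPM without, with overlap. In control cells it fell 32.1-fold by day 3 (log2 -5.01, edgeR adjusted p = 4e-16) and 13.4-fold from day 3 to day 5 (log2 -3.75, edgeR adjusted p = 9.5e-13).

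Klf2, Klf4 and Klf5 are Krüppel-like zinc finger proteins that bind related GC-rich sites and can partly stand in for one another in stem cells. Klf4 fell mostly before day 3, Klf2 and Klf5 in 2 steps of like size. Klf4 (chromosome 4, 55527143 to 55532466, minus strand) had 147, 175 and 138 CPM in Dox and 138, 154 and 150 CPM in control libraries at day 0. At day 3 it had 2.44, 2.28 and 3.61 CPM with Dox and 2.52, 2.26 and 1.77 CPM without, and at day 5 1.46, 0.671 and 0.982 CPM with Dox and 0.949, 1.11 and 0.9 CPM without. Treatments overlapped on each day. In control cells Klf4 fell 67.9-fold by day 3 (log2 -6.09, edgeR adjusted p = 1.3e-16) and 2.2-fold after it (log2 -1.14, edgeR adjusted p = 0.00052).

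Klf2 (chromosome 8, 72319033 to 72321656, plus strand) had 274, 269 and 309 CPM in Dox and 297, 319 and 302 CPM in control libraries at day 0. It had 17.7, 14.9 and 17.5 CPM with Dox and 15.4, 13.8 and 15.4 CPM without at day 3. It had 2.22, 1.25 and 1.47 CPM with Dox and 1.56, 1.01 and 1.08 CPM without at day 5. Treatments overlapped at all 3 days, while days stood apart. In control cells it fell 20.6-fold by day 3 (log2 -4.36, edgeR adjusted p = 3.6e-17) and 12.3-fold after it (log2 -3.62, edgeR adjusted p = 1.7e-13).

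Klf5 (chromosome 14, 99298691 to 99315036, plus strand) is the member of the trio that is also required in trophoblast. It had 233, 247 and 196 CPM in Dox and 224, 215 and 227 CPM in control libraries at day 0. At day 3 its values were 12.8, 12.7 and 13.6 CPM with Dox and 14.5, 14.7 and 15.5 CPM without. At day 5 they were 1.22, 0.762 and 1.21 CPM with Dox and 1.56, 1.68 and 1.57 CPM without. The treatments overlapped at day 0, and at day 3 and day 5 each Dox library stood below each control library. In control cells Klf5 fell 14.9-fold by day 3 (log2 -3.90, edgeR adjusted p = 1.1e-17) and 9.28-fold after it (log2 -3.21, edgeR adjusted p = 2.3e-14). At day 3, 53.2 and 54.8% of the log2 decline of Klf5 was complete in Dox and control cells, and the same share was 55 and 54.7% for Klf2 and 80.3 and 84.1% for Klf4.

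Tbx3, a T-box factor that takes part in LIF signalling to the network and is used again in several tissues of the embryo, lies on chromosome 5 (119670669 to 119684724, plus strand). It was lost early, and at day 5 it was lower in Dox than in control cells. At day 0 it had 222, 230 and 192 CPM in Dox and 245, 249 and 233 CPM in control libraries. The day 3 values were 3.24, 2.82 and 2.86 CPM with Dox and 2.95, 2.9 and 2.92 CPM without. At day 5 it had 1.25, 1.52 and 1.44 CPM with Dox and 2.81, 3.9 and 3.6 CPM without. Treatments overlapped at day 3 alone, and the gap at day 5 was wider than either group's spread. Tbx3 fell 82.8-fold by day 3 in control cells (log2 -6.37, edgeR adjusted p = 1.9e-19). From day 3 to day 5 it fell 2.12-fold in Dox cells (log2 -1.08, edgeR adjusted p = 2.1e-06), while in control cells its change was log2 0.24 (edgeR adjusted p = 0.086). In TPM the Dox libraries of these days overlapped, with 0.42, 1 and 0.84 at day 5 against 0.96, 0.84 and 0.86 at day 3, so the days were not separate in Dox cells on that scale. That control change was called higher without control replicate 1 of day 5 (adjusted p = 0.013) and with library sizes alone (adjusted p = 0.045), both by edgeR. An antisense gene, Tbx3os1, overlaps Tbx3, and the strand setting of the counting is not given in the sources used here. It held 0, 1 and 3 counts in Dox and 3, 4 and 4 counts in control libraries at day 5, against 41, 50 and 50 and 83, 123 and 140 counts of Tbx3.

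Nr0b1 and Prdm14 act largely as repressors and were depleted most by day 3. Nr0b1 (Dax1), an orphan nuclear receptor without the usual DNA-binding domain (X chromosome, 86191764 to 86195947, plus strand), had 148, 155 and 145 CPM in Dox and 169, 176 and 166 CPM in control libraries at day 0. Dox libraries lay below control libraries there without overlap. At day 3 it had 0.922, 0.749 and 0.661 CPM with Dox and 0.697, 0.848 and 0.691 CPM without, and at day 5 0.335, 0.244 and 0.115 CPM with Dox and 0.237, 0.222 and 0.103 CPM without. In control cells it fell 226-fold by day 3 (log2 -7.82, edgeR adjusted p = 1.2e-19) and 4.08-fold after it (log2 -2.03, edgeR adjusted p = 4.1e-06).

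Prdm14, which restrains FGF signalling and DNA methylation in stem cells and is required for germ cells (chromosome 1, 13113457 to 13127163, minus strand), had 71.4, 74.2 and 76.8 CPM in Dox and 60, 65 and 68.7 CPM in control libraries at day 0. Each Dox library stood above each control library. At day 3 it was down to 2, 1 and 4 counts in Dox and 3, 1 and 3 counts in control libraries, which is around the floor of 3 counts and allows no fold change between the treatments. The 7 counts of each group (exact Poisson 95% interval 2.81 to 14.4) left 0.0969% of the day 0 level in Dox cells (0.039 to 0.2%) and 0.104% in control cells (0.0418 to 0.214%). At day 5 there were 9, 6 and 3 counts in Dox and 5, 0 and 2 counts in control libraries, and the treatments overlapped. These intervals and floors cover counting error only. Between day 3 and day 5 Prdm14 was not called in Dox cells (edgeR adjusted p = 0.089) or in control cells (edgeR adjusted p = 0.92). The first was called higher without Dox replicate 3 of day 5 (edgeR adjusted p = 0.035).

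Zfp42 (Rex1), a zinc finger protein widely used as a reporter of the naive state, lies on chromosome 8 (43295063 to 43306980, minus strand). Its promoter is shown for comparison with that of Nanog, since it is the other factor whose window holds a searched motif (RefSeq, GRCm38.p6, chr8:43306960-43307259, minus strand). Capitals mark the octamer ATTTGCAT, bound by Oct4, 186 bases before the start, and the Klf-type box CCACACCC 75 bases before it.
Zfp42 promoter: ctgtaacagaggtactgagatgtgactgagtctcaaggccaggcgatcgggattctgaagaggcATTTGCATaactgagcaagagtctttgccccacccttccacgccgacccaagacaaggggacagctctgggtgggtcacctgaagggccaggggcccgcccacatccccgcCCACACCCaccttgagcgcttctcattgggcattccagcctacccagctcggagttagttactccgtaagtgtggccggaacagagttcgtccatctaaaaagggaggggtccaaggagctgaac
Over all windows the octamer was found in 1.74% and the box in 3.56%, on either strand, and the Esrrb-type motif TCAAGGTCA was in 0.423% and in no window of these factors. RefSeq windows were at hand for 7 of the 10 factors. These matches are descriptions of sequence and not shown binding sites. Zfp42 had 616, 567 and 653 CPM in Dox and 559, 559 and 590 CPM in control libraries at day 0. Its day 3 values were 6.93, 6.53 and 7.13 CPM with Dox and 5.21, 6.47 and 7.06 CPM without, and at day 5 it had 1.73, 1.19 and 0.606 CPM with Dox and 1.22, 0.982 and 0.592 CPM without. The treatments overlapped at each day. In control cells it fell 90.4-fold by day 3 (log2 -6.50, edgeR adjusted p = 1.5e-17) and 6.94-fold after it (log2 -2.79, edgeR adjusted p = 1.8e-09). Reads shared with the copy Zfp42-ps1 could be split between both genes. Zfp42-ps1 had at most 356 counts in a library at day 0 and at most 3 at day 5.

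Ordered by how much of the day 0 level was left, the factors formed a sequence from Nanog to Prdm14 at day 3. Neighbours are called separate here where the ranges of their 9 ratios between libraries of the 2 days did not overlap. In control cells Nanog kept 25.8% (range 23.1 to 28.6), Klf5 6.71%, Klf2 4.86% and Tfcp2l1 3.11%, each separate from the next. Below these, Klf4 at 1.48%, Tbx3 at 1.21%, Zfp42 at 1.1% and Esrrb at 0.823% overlapped with their neighbours. Nr0b1 at 0.438% and Prdm14 at 0.104% were separate from those above. In Dox cells Nanog kept 23.8% (range 22.2 to 25.9) and was again separate. Klf2 at 5.88% and Klf5 at 5.79% overlapped there, and Tfcp2l1 kept 3.87%. Klf4, Tbx3, Zfp42 and Esrrb kept 1.81, 1.39, 1.12 and 0.939%, and Nr0b1 kept 0.52%.

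By day 5 the order was a different one, and Nanog stood near its end. In control cells Tbx3 kept most, 1.42% (range 1.13 to 1.67), and was separate from Klf5 at 0.723% and Klf4 at 0.67%. Klf2 kept 0.398%, Esrrb 0.29%, Tfcp2l1 0.236% and Zfp42 0.164%, and Nanog, Prdm14 and Nr0b1 kept 0.127, 0.114 and 0.11%. The Prdm14 value has no firm place in this order: its ratios ranged from 0 to 0.282%, and it was 0.0385% without replicate 1 and 0.172% without replicate 2. From Klf2 downwards all neighbours overlapped. In Dox cells neighbours overlapped along the whole order, with Klf4 at 0.676%, Tbx3 at 0.655% (range 0.542 to 0.796), Klf2 at 0.58% and Klf5 at 0.472%. Esrrb kept 0.34%, Tfcp2l1 0.281%, Prdm14 0.244%, Nanog 0.195%, Zfp42 0.192% and Nr0b1 0.155%. In TPM, which also follow the mix of transcripts of a gene, Tbx3 kept 1.15% and Klf4 1.14% in Dox cells at day 5. Between day 3 and day 5, control cells lost all but 0.492% of the Nanog level and kept 35.2% of Esrrb, 45.2% of Klf4 and 118% of Tbx3.

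**Figure D2:**
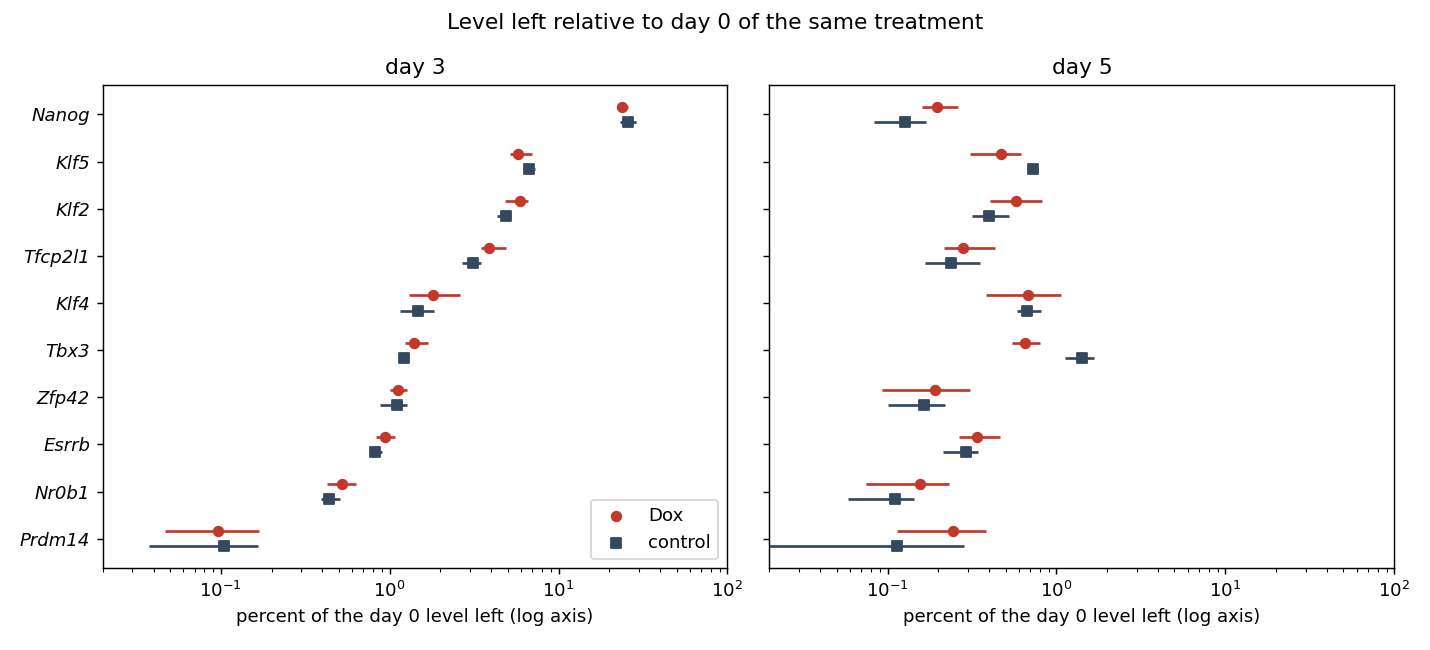
Percent of the day 0 level left (log axis) at day 3 (left) and day 5 (right) for each factor, sorted by control cells at day 3. Points are group means over the day 0 mean of the same treatment, Dox (red circles) above control (dark squares), and lines span the 9 ratios of libraries. The control line of Prdm14 at day 5 reaches 0 and is drawn from 0.02. Nanog keeps 23.8 and 25.8% at day 3 and 0.195 and 0.127% at day 5.

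Other genes of the network were read beside the 10, in lists chosen with results of these data known. Of 14 other genes of the naive state, 13 fell in control cells by day 3 and 1, Gbx2, rose (37.2% of all genes rose), with 156 ± 16.7 CPM in Dox and 157 ± 13.6 CPM in control libraries at day 3 against 13.5 ± 4.71 and 22.3 ± 10.4 at day 0 (SD, n = 3). Their median log2 fold change was -6.11, close to that of the 10 factors. Of the 7 genes of the LIF and STAT3 list, receptors and targets alike, 6 fell in Dox cells and 7 in control cells by day 3, with medians of -2.62 and -2.60. From day 3 to day 5, 2 of the 7 rose and 2 fell in Dox cells (median 0.15), where 32.2% of all genes rose, and 5 rose and 2 fell in control cells (median 0.79), where 31.7% rose. Of these 7, Pim1 had a called difference of Dox effects from day 3 to day 5 (log2 -0.83, edgeR adjusted p = 0.0023). Of 7 core partners, 4 fell and Lin28a, an RNA-binding protein that blocks let-7 maturation, rose by day 3 in control cells. It averaged 679 ± 13.5 CPM in Dox and 677 ± 16.5 CPM in control libraries at day 3, against 17.3 ± 4.39 and 17.8 ± 5.58 at day 0. Among 8 genes of primed or formative epiblast in control cells, 7 rose by day 3, and from day 3 to day 5 7 fell and 1 rose. The counts for the naive-state, core and epiblast lists were the same in Dox cells. The exception by day 3 was Otx2, with 9.63 ± 1.57 CPM in Dox and 9.52 ± 0.886 CPM in control libraries at day 3, against 28.5 ± 6.61 and 18.4 ± 3.51 at day 0. Of 6 genes around the Wnt and TCF input, 2 rose and 2 fell by day 3 in Dox cells, and 2 rose and 3 fell in control cells. These counts lie near the shares of all genes, 36.7% higher and 35.9% lower in Dox cells and 37.2% higher and 36.3% lower in control cells.

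The genes whose course came nearest to each factor were found by the root mean square difference of log2 group means, relative to day 0 control cells, over the 6 groups and 9966 genes. Nanog stood alone among the 10, at 1.60 from its nearest fellow factor, Klf2. Its nearest gene was Tdgf1 (Cripto, a Nodal co-receptor) at 0.30, and the next, L1td1, was at 0.82. Esrrb and Nr0b1 were each other's nearest factor at 0.22, and Esrrb and Zfp42 followed at 0.35. Klf2 and Klf5 stood 0.37 apart and Klf4 and Tbx3 0.45. Outside the 10, Pecam1, an adhesion molecule, was nearest to Klf4 at 0.17, Zfp296 to Klf5 at 0.18, Zfp600 to Tfcp2l1 at 0.16 and Zfp978 to Klf2 at 0.17. For Zfp42 it was the long noncoding RNA Lncenc1 at 0.13, for Nr0b1 Arl14epl at 0.20, for Prdm14 Accsl at 0.22 and for Tbx3 Slc15a1, a peptide transporter, at 0.30. Because levels were offset by 0.5 CPM, differences among genes at low levels are damped in this measure, at day 3 as well as at day 5. At day 3 in control cells Nr0b1 stood at -7.10 with the offset, against a fitted log2 fold change of -7.82, and Esrrb at -6.83 against -6.92. The nearness of this pair thus rests in part on the offset, and their levels left at day 3 were separate. Prdm14 was damped more, at -6.84 with the offset against a fitted -9.87 at day 3 in control cells. Its nearness to Accsl rests on the offset to a larger extent.

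No factor was called between Dox and control in stem cells or at day 3 by edgeR. At day 0 this compares with 1.04% of all genes called in either direction. At an unadjusted p under 0.05 there were 2 of the 10, beside 2197 of all 17795 genes tested, and DESeq2 called 1, Nr0b1. Its log2 fold change was -0.19 ± 0.0706 SE (edgeR adjusted p = 0.26, DESeq2 adjusted p = 0.048), and Tbx3 had -0.18 ± 0.0702 (edgeR adjusted p = 0.29). Dox libraries of both lay below all control libraries, as 5.64% of all genes did, and those of Prdm14 lay above (log2 0.20, edgeR adjusted p = 0.49), as 4.59% did. The widest interval of a Dox effect among the 10 at day 0 was that of Tfcp2l1, with a log2 fold change of -0.14 and a 95% interval from -0.388 to 0.11. At day 3 no factor was called by edgeR or DESeq2, where 0.0169% of all genes were called by edgeR. There 1 factor, Klf5, had an unadjusted p under 0.05 (log2 -0.19 ± 0.0871 SE, edgeR adjusted p = 1), beside 432 of all 17795 genes tested. Dox libraries lay below all control libraries for Klf5, as for 5.46% of all genes, and above them for Tfcp2l1, as for 5.66%. Nanog at day 3 had a log2 fold change of 0.03 (95% interval -0.142 to 0.206, edgeR adjusted p = 1). The intervals were wider for Klf4 (log2 0.37, -0.057 to 0.797) and Nr0b1 (log2 0.06, -0.371 to 0.487), and Prdm14 had too few counts to compare. A p that misses the threshold does not show that the levels were equal.

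At day 5, 1 factor was higher and 1 lower with Dox by edgeR, where 2.39% of all genes were called higher and 2.34% lower. Tbx3 was the lower one, 2.45-fold (log2 -1.29 ± 0.138 SE, 95% interval -1.585 to -1.004, edgeR adjusted p = 1.6e-05). The log2 differences within replicate numbers 1, 2 and 3 were -1.17, -1.35 and -1.32, and the call held under every alternative tried. In TPM the values were 0.42, 1 and 0.84 in Dox and 1.24, 1.31 and 1.37 in control libraries, which is a smaller gap that still had no overlap. The effect of Dox on Tbx3 differed between days, by log2 -1.32 from day 3 to day 5 (edgeR adjusted p = 0.0013) and by -1.12 from day 0 to day 5 (edgeR adjusted p = 6e-04). Of the 10 factors edgeR called Tbx3 alone in either difference, where 0.82 and 3.28% of all genes were called. Unadjusted p was under 0.05 for 2 and 4 of the 10 in these differences, beside 1479 and 2704 of all 17795 genes tested. From day 0 to day 3 neither edgeR nor DESeq2 called a difference of a factor, where edgeR called 0.0562% of all genes. At an unadjusted p under 0.05 there were 0 factors, beside 1433 of all 17795 genes tested.

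Nanog was the higher one, 1.73-fold (log2 0.79 ± 0.188 SE, edgeR adjusted p = 0.017), at levels near 1 to 3 CPM, or 87, 59 and 62 counts in Dox and 46, 39 and 34 in control libraries. Within replicate numbers 1, 2 and 3 the log2 differences were 0.76, 0.54 and 1.03. The call did not hold when day 5 was fitted alone (edgeR adjusted p = 0.087), or without control replicate 2 (0.052), control replicate 3 (0.14) or Dox replicate 1 (0.098). Replicate 1 held the highest value of 9 of the 10 factors among Dox libraries of day 5 and of 7 among control libraries. The change of the Nanog effect was not called from day 3 to day 5 (log2 0.76, edgeR adjusted p = 0.12) or from day 0 to day 5 (log2 0.64, edgeR adjusted p = 0.1), and DESeq2 called both (adjusted p = 0.0059 and 0.016).

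Klf5 was 1.5-fold lower with Dox at day 5 without being called (log2 -0.58 ± 0.176 SE, edgeR adjusted p = 0.068). It was called by DESeq2 (adjusted p = 0.044) and by edgeR without the filter on low counts (adjusted p = 0.03). Groups did not overlap for Nanog, higher with Dox as 13.8% of all genes were, and for Tbx3 and Klf5, lower as 12.3% were. Of the others, Klf2 had a log2 fold change of 0.45 (95% interval 0.01 to 0.891, edgeR adjusted p = 0.29). Prdm14 had 18 counts in Dox libraries (exact Poisson 95% interval 10.7 to 28.4) and 7 in control libraries (2.81 to 14.4), too few for a fold change, and was not called (edgeR adjusted p = 0.3). Esrrb, Klf4, Tfcp2l1, Nr0b1 and Zfp42 had values from 0.08 to 0.37 with edgeR adjusted p of at least 0.63. The median of the 10 at day 5 was 0.27, against 0.00 over all genes. Unadjusted p was under 0.05 for 5 of the 10 at day 5, beside 2916 of all 17795 genes tested.

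**Figure D3:**
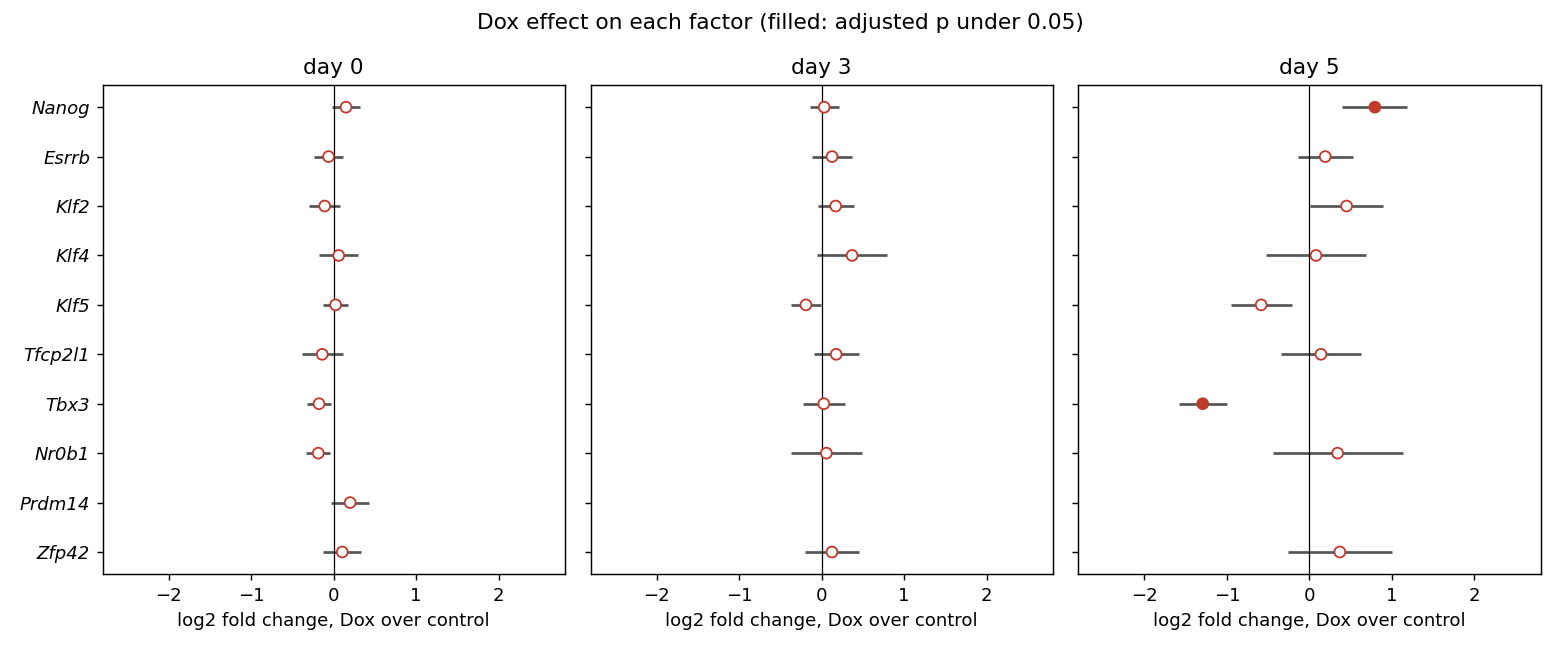
Log2 fold change of Dox over control for each factor at day 0, 3 and 5 from edgeR, with 95% intervals as lines. Filled points passed an adjusted p under 0.05, which Nanog (0.79) and Tbx3 (-1.29) did at day 5. Prdm14 is left out at day 3 and day 5, where its libraries held 0 to 9 counts.

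Markers of other cell types were read beside these results, and their part in them was not tested. Of 8 endoderm genes 7 were tested, and 2 were lower with Dox at day 5, where 2.34% of all genes were: Foxa1 (log2 -1.41, edgeR adjusted p = 0.0041) and Foxa2 (log2 -1.34, edgeR adjusted p = 0.0028), pioneer factors of endoderm and, for Foxa2, of midline tissue. Foxa1 had 1.64, 1.49 and 1.27 CPM in Dox and 3.73, 3.68 and 4.27 CPM in control libraries, and Foxa2 had 0.73, 0.793 and 0.606 CPM with Dox and 1.22, 1.87 and 2.24 CPM without. The summed CPM of the 8 was 12 to 19.7 in Dox and 21.6 to 26.8 in control libraries, no gene of the list being at 0 in a whole group. Tbx3 and these genes were thus lower in the same 3 libraries. Beside Nanog, Pou5f1 had 5.63, 4.15 and 3.96 CPM with Dox and 4.07, 3.74 and 1.77 CPM without, with overlap (log2 0.55, edgeR adjusted p = 0.14). At day 5 edgeR called 0 of the 7 core partners and 0 of the 14 other naive-state genes, with 2 and 1 at an unadjusted p under 0.05. DESeq2 made 0 and 1 calls, and the medians were 0.20 and 0.34. Over all genes, 2916 of 17795 had an unadjusted p under 0.05 at day 5. Of 7 primordial germ cell genes 0 were called by edgeR or DESeq2 (1 at an unadjusted p under 0.05), and their summed CPM was 6.76 to 10.6 with Dox and 6.2 to 7.67 without. In the LIF and STAT3 list 1 of 7 was called (2.34% of all genes lower), the kinase gene Pim1, lower with Dox at log2 -0.82 (edgeR adjusted p = 1.4e-05). Of 7 tested blood and endothelial genes 1 was called (2.39% of all genes higher), the receptor gene Tek, higher with Dox at log2 1.82 (edgeR adjusted p = 0.018). Tek was highest in stem cells, with means of 9.08 and 6.46 CPM at day 0 against 0.963 and 0.27 at day 5 (Dox, then control). The summed CPM of the blood and endothelial list was 4.59 to 6.41 with Dox and 3.4 to 4.68 without, with Gata1 at 0 in control libraries. Etv2 and Tal1 had lower means with Dox at day 5, 0.42 against 0.5 and 0.45 against 0.491 CPM, and the other genes of the list had higher ones. Trophoblast and surface epithelium genes summed to 6.33 to 7.51 CPM with Dox and 8.06 to 10.2 CPM without, with Elf5 at 0 in both groups and 0 of 5 tested called by edgeR (3 at an unadjusted p under 0.05, 1 call by DESeq2). Members of this list differed in direction. Krt8 averaged 2.28 CPM with Dox and 3.25 without, Krt18 2.1 and 3.15, and Gata3 and Grhl3 were lower with Dox as well. Tfap2a went the other way, with 0.478 and 0.253 CPM, as did Trp63, with 0.14 and 0.0113. Of 6 genes of 2-cell-like cells, which some stem cells resemble, 5 were at 0 in Dox and 6 in control libraries of day 5.

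**Figure D4:**
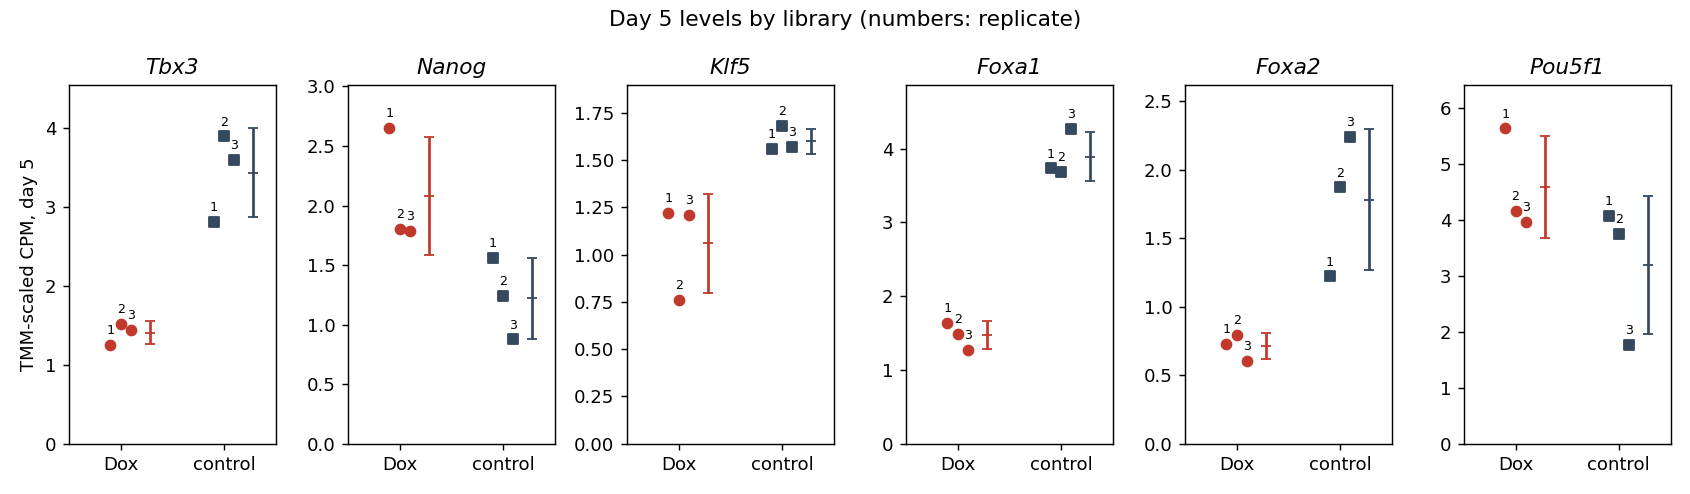
Normalised CPM at day 5 of Tbx3, Nanog, Klf5, Foxa1, Foxa2 and Pou5f1 in each library (numbers are replicates), Dox left of control, with mean and SD at the right of each group. Dox libraries lie below control libraries for Tbx3, Klf5, Foxa1 and Foxa2 and above them for Nanog, and groups overlap for Pou5f1.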

How the data were processed

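Poly(A) RNA of 18 libraries (6 groups of 3) was sequenced after an Illumina stranded mRNA preparation, per the labels' protocols. Build GRCm38 and the tools DESeq2 1.38.2, RSEM 1.3.3, STAR 2.7.10a and Trimmomatic are listed in the submitters' processing notes, without roles. The annotation release and strand setting are not given in the sources used here. The authors deposited RSEM gene tables, 1 per library, with expected counts (estimated counts not scaled to depth), TPM, scaled to the library and by transcript length, and FPKM, which was not used. Of the expected counts 6.54 to 7.49% were not whole, and all were rounded. Symbols came from GENCODE M21 (55141 of 55401 IDs matched).

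edgeR 4.0.16 (R 4.3.3) quasi-likelihood F tests used TMM factors (0.894 to 1.063), filterByExpr (minimum count 10, minimum total 15), which kept 17795 genes, and 1 fit of 6 group means over 18 libraries with 12 residual degrees of freedom. Calls needed p under 0.05 after Benjamini-Hochberg adjustment across all genes. CPM are TMM-scaled, and the standard error of a log2 fold change was derived from the F statistic. The script was tested on simulated data.

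The replicate number is also the batch tag of the labels and so pairs samples. With group means removed, the correlation across genes between Dox and control libraries was 0.21 to 0.33 for equal numbers on day 0, against -0.25 to 0.055 for unequal ones. On day 3 it was 0.01 to 0.036, against -0.043 to 0.02. On day 5 it was 0.022 to 0.051, against -0.057 to 0.02. A fit with that block is an alternative. The spread was pooled over groups, but replicates differed more at day 0, with median chi-squares per gene from 2.35 to 4.83, than at day 3 (0.753 to 1.77) or day 5 (0.818 to 2.19). No 2 replicates held identical values. Dox comparisons and control courses share control libraries.

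Named genes were the 10 factors, Rnaseh1, for each factor the genes of most like course (symbols that are not placeholders, at least 5 CPM in day 0 control cells), and from each list up to 3 called members with the largest changes or, with none called, the most abundant. Others named beside these were chosen after their values were seen. The factors and lists were chosen with earlier results of these data known. Alternatives were DESeq2 1.42.0, library size alone or RLE factors, each day alone, a filter of 1 CPM in 3 libraries or none, TPM for levels left, the block and leaving out each library.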

Additional observations from a re-analysis of the deposited data

Results flagged for a closer look

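The effect of Dox on Tbx3 differed between days in the edgeR fit, by log2 -1.322 between day 3 and day 5 (SE 0.186, adjusted p = 0.0013) and by log2 -1.117 between day 0 and day 5 (SE 0.156, adjusted p = 6e-04). Within replicate numbers the log2 difference of Dox over control was -1.17, -1.35 and -1.32 at day 5, 0.13, -0.04 and -0.03 at day 3 and -0.14, -0.11 and -0.28 at day 0.

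The effect of Dox on Rnaseh1 itself was smaller after day 0, by log2 -0.895 at day 3 (edgeR adjusted p = 0.00087) and by log2 -0.893 at day 5 (edgeR adjusted p = 0.00019). It remained above control at both days, with log2 fold changes of 1.54 and 1.54 against 2.43 at day 0.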

How the results depend on the processing

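Over 110 values of a factor in a comparison, 1536 of 1554 alternative fits kept the side of the threshold. Of the rest, 4 lost a call (all of Nanog at day 5), 14 gained one and 0 reversed a call. The fit with the replicate block changed no call of a factor, so that 2 were called for Dox at day 5 with it as without it. Among values not called in either fit, 45 of 912 alternatives changed sign, and these are counted among the 1536. Of the 10 factors, DESeq2 called 1 for Dox at day 0 against 0, and 2 for the day 5 minus day 3 and for the day 5 minus day 0 difference of Dox effects against 1 each. Without a filter on low counts the differences had 2 and 3 calls. Day 5 fitted alone called 1 for Dox against 2. Leaving out 1 library gave 1 to 2 calls for Dox at day 5 and 1 to 2 for either difference. It gave 9 to 10 for day 5 against day 3 in Dox cells and 8 to 9 in control cells. The median level left at day 3 was 1.6% in Dox cells and 1.87% in TPM. In control cells it was 1.35%, against 1.49% in TPM and 1.49% with library size alone. Library size alone shifted the median log2 fold change of all genes by 0.15 for day 3 and 0.17 for day 5 against day 0 in control cells, and by 0.15 for day 3 against day 0 in Dox cells. Levels left in TPM were 0.971 to 1.75 times those in CPM, Prdm14 left out. Of 200 alternative values of a level left, Prdm14 included, 47 moved by the SD among that day's libraries or more. These alternatives were TPM, library size alone and leaving out each replicate number. The cause of these shifts was not tested. Depth limits Prdm14 after day 0, with 18 counts or fewer in a group, and Nr0b1 at day 5, with 23 in Dox and 18 in control libraries.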
